A study of Mus musculus with 18 samples.

Results

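Selenbp1, Selenbp2, Moxd1, Inmt, Keg1, Nudt7 and Rasgrp2 are 7 of the 25266 genes listed for the liver of 18 male mice. They were picked by name, because earlier results of the same data showed hepatocyte genes outside the large gene families with a strong dependence on diet or genotype. Within the 7, Selenbp1 gave a flat profile by comparison, and a hepatocyte origin of Rasgrp2 cannot be read from bulk liver. Because of this choice, differences of the 7 genes between the groups are given as a description and carry no test. The liver is a bulk tissue here, so fewer cells of a type and less RNA per cell cannot be told apart.

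FF mice carry floxed alleles of Ppp6r3, which encodes SAPS3, a regulatory subunit of protein phosphatase 6, and served as the controls. LKO mice carry the same floxed alleles and a Cre recombinase driven by the albumin promoter, which acts in hepatocytes and leaves the other liver cells with the gene. The Cre came from C57BL/6 mice bred to FF mice. The mice were 8 weeks old when they were put on a control diet (CD) with 10 kcal% fat or on a high fat diet (HFD) with 32.5 kcal% fat, which lasted 16 weeks, giving 4 FF CD, 4 LKO CD, 5 FF HFD and 5 LKO HFD mice. The labels do not say which mice shared a litter or cage. Values are RPKM, read numbers scaled for the length of the gene and the size of the library, so that levels of different genes are per length.

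These genes act at separate points of liver chemistry. Selenbp1 and Selenbp2 encode closely related selenium-binding proteins. Selenbp1 oxidises methanethiol, a sulfur compound, and Selenbp2 was first known as a protein that binds acetaminophen. Moxd1 belongs by sequence to the copper-dependent monooxygenases, the family of dopamine beta-hydroxylase. Inmt transfers methyl groups to tryptamine and other small amines. Keg1 resembles the enzymes that join acyl groups to glycine, and Nudt7 breaks down coenzyme A in peroxisomes. Rasgrp2 exchanges the nucleotide on the small GTPase Rap1 and is best known from platelets. In mice, many liver genes differ between the sexes because males and females release growth hormone in different patterns, and STAT5 carries that signal to the genes.

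The coding transcripts of Selenbp1 and Selenbp2 (the longest of each in GENCODE) were 98.5% identical over 1712 aligned bases. Of all stretches of 50 bases in the Selenbp2 transcript, 52% also occurred in Selenbp1, and 21.2% of the stretches of 100 bases did. No other gene shared such a stretch of 50 bases with either, and the other 5 genes shared none with any gene. Both lie on the plus strand of chromosome 3 in build mm10, Selenbp2 at chr3:94693556-94704413 and Selenbp1 at chr3:94933056-94944758, 0.229 Mb apart with 3 tested genes between them. The sequences before their starts are shown because the pair differed so widely in level between the groups. They were taken from RefSeq (GRCm38.p6), chr3:94932835-94933055 for Selenbp1 and chr3:94693323-94693555 for Selenbp2, plus strand, and end at the base before the annotated gene. Capitals mark bases that differ between both or are present in one alone.
Selenbp1: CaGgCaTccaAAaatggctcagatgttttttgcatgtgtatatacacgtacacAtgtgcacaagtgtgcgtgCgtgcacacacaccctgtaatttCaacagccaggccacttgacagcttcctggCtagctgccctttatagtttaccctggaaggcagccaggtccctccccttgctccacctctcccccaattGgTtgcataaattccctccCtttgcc
Selenbp2: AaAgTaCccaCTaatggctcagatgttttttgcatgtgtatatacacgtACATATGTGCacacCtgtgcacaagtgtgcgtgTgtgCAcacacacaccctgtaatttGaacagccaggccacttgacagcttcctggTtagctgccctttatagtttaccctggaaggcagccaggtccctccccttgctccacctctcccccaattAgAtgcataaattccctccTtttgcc
Of 221 aligned bases, 208 (94.1%) were identical, 13 differed, and 12 were present in Selenbp2 alone. Each window held 1 match to TATAAA on either strand, letters that 13.6% of the 32851 RefSeq promoter windows hold.

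Selenbp2 differed widely between the groups. Its RPKM was 150, 94.5, 207 and 144 in the 4 FF CD mice, and 39.2, 22.2, 24.1 and 8.63 in the 4 LKO CD mice. In FF HFD it was 7.28, 3.98, 5.77, 8.27 and 6.53, and in LKO HFD it was 65.9, 65.0, 90.2, 38.3 and 208. All FF HFD mice thus lay below every other mouse, and the LKO CD mice lay below every FF CD mouse. The LKO HFD mice overlapped FF CD at the top, with 4 of 5 below all FF CD mice and 1 above them, and overlapped LKO CD at the bottom. The mean of 149 ± 46.1 (SD, n = 4) in FF CD compared with 6.36 ± 1.62 (SD, n = 5) in FF HFD, a 23.4-fold ratio. Under HFD the LKO mean of 93.5 ± 66.5 (SD, n = 5) was 14.7-fold that of FF. On CD the direction between genotypes was the opposite, with 23.5 ± 12.5 (SD, n = 4) in LKO and a 6.34-fold higher mean in FF.

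Selenbp1 gave a flat profile by comparison. It was 115, 121, 115 and 92.8 RPKM in FF CD, 147, 129, 100 and 132 in LKO CD, 136, 152, 72.1, 111 and 129 in FF HFD, and 119, 118, 82.8, 79.1 and 79.2 in LKO HFD. The ranges of all 4 groups overlapped, and the highest group mean, 127 ± 19.4 (SD, n = 4) in LKO CD, was 1.33-fold the lowest, 95.5 ± 20.8 (SD, n = 5) in LKO HFD. The ratio of Selenbp2 to Selenbp1 within a mouse had a median of 1.43 in FF CD, 0.206 in LKO CD, 0.0535 in FF HFD and 0.556 in LKO HFD. For neither gene did any length turn the RPKM values into whole reads. Nudt7, which shared no stretch of 50 bases with any gene, gave no whole reads either. Reads may have been shared out between Selenbp1 and Selenbp2, but this was not tested. The authors' treatment of reads that fit both is not stated. Some deposited values of other genes were far below 1 read, such as the median of 1.5e-25 RPKM for Gp1bb. How much Selenbp1 reads add to the low Selenbp2 values of FF HFD was not tested, and the ratios for Selenbp2 carry this limit.

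Moxd1 (chr10:24223517-24302790, plus strand) was measurable mainly in FF CD mice. There it had 583, 1911, 572 and 106 reads, which are 5.89, 24.7, 7.93 and 1.36 RPKM. In LKO CD it had 58, 4, 1 and 0 reads, and in LKO HFD 4, 8, 1, 1 and 70 reads. No read was seen in any of the 5 FF HFD mice, where a floor of 3 reads per library corresponds to 0.0263 to 0.0386 RPKM. Every FF CD mouse lay above every other mouse. The FF CD mean of 9.98 ± 10.2 RPKM (SD, n = 4) was at least 286-fold higher than the mean floor of the FF HFD libraries, 0.0349 RPKM, and 45.1-fold the LKO HFD mean of 0.221 ± 0.397 (SD, n = 5). The LKO CD mean was 0.203 ± 0.369 (SD, n = 4). One mouse held most of the reads in each LKO group, 58 of 63 in LKO CD and 70 of 84 in LKO HFD, and each of these mice was also the highest of its group for Selenbp2. In FF CD the reverse was seen, where the mouse highest for Moxd1, at 24.7 RPKM, was the lowest for Selenbp2, at 94.5 RPKM. Deviations of both genes from the group means gave r = 0.148 over the 18 mice (within-group permutation p = 0.519, adjusted p = 0.791). At the low levels of the LKO groups, a difference between LKO HFD and LKO CD was not detectable. Moxd1 passed the filter on low values through FF CD.

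Inmt (chr6:55170626-55175043, minus strand) followed diet in both genotypes. It was 280, 256, 321 and 286 RPKM in FF CD, 467, 348, 390 and 477 in LKO CD, 170, 178, 129, 152 and 179 in FF HFD, and 265, 245, 80.4, 99.1 and 78.5 in LKO HFD, from 1964 to 13291 reads per mouse. The LKO CD mice lay above all others, and the FF CD mice lay above all FF HFD mice. The LKO HFD mice fell on both sides of the FF HFD range, 2 above it and 3 below it, with none inside. Their mean of 153.5 ± 93.0 (SD, n = 5) was thus close to the 161.6 ± 21.5 (SD, n = 5) of FF HFD while the mice were not alike. The mean in LKO CD, 420.4 ± 62.1 (SD, n = 4), was 1.47-fold that of FF CD, 285.6 ± 26.7 (SD, n = 4), and 2.74-fold that of LKO HFD. The same 2 LKO HFD mice were the highest of their group for Selenbp1, at 119 and 118 RPKM against 82.8, 79.1 and 79.2.

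Nudt7 (chr8:114133557-114154739, plus strand) separated FF HFD from the other 3 groups. Its RPKM was 227, 211, 247 and 175 in FF CD, 152, 156, 180 and 164 in LKO CD, 116, 61.4, 59.5, 79.2 and 108 in FF HFD, and 176, 140, 160, 124 and 142 in LKO HFD. All FF HFD mice were below every mouse of the other groups. The FF HFD mean of 84.9 ± 26.2 (SD, n = 5) was 0.395 of the FF CD mean, 214.8 ± 30.5 (SD, n = 4). LKO HFD, at 148.3 ± 20.2 (SD, n = 5), was 1.75-fold FF HFD and overlapped LKO CD, at 163 ± 12.5 (SD, n = 4).

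Keg1 (chr19:12695786-12719902, plus strand) had the same order of diets in FF with wider overlap. It was 90.1, 69.5, 64.1 and 51.6 RPKM in FF CD, 46.1, 44.5, 69.6 and 56.0 in LKO CD, 73.4, 31.3, 22.8, 40.7 and 43.3 in FF HFD, and 73.6, 55.7, 81.9, 108.6 and 75.4 in LKO HFD. One FF HFD mouse, at 73.4, stood among the LKO HFD mice, and the other 4 lay below all of them. The means were 68.8 ± 16.0 (SD, n = 4), 54.0 ± 11.5 (SD, n = 4), 42.3 ± 19.2 (SD, n = 5) and 79.0 ± 19.2 (SD, n = 5) in that order, and LKO HFD was 1.87-fold FF HFD.

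Rasgrp2 (chr19:6399340-6415216, plus strand) was low in every mouse, with 77 to 300 reads. It was 1.95, 2.36, 1.94 and 2.02 RPKM in FF CD, 1.36, 2.08, 1.72 and 1.97 in LKO CD, 3.36, 3.01, 3.32, 3.20 and 3.56 in FF HFD, and 1.90, 2.03, 1.79, 1.47 and 1.30 in LKO HFD. The FF HFD mice were all above the other 13 mice, and the other 3 groups overlapped. FF HFD, at 3.29 ± 0.20 (SD, n = 5), was 1.59-fold FF CD at 2.07 ± 0.198 (SD, n = 4) and 1.94-fold LKO HFD at 1.70 ± 0.303 (SD, n = 5). The summed level of 6 platelet and megakaryocyte markers ran from 1.67 to 2.98 RPKM (median 2.29) in FF HFD, 1.28 to 2.19 (median 1.45) in LKO HFD, 1.31 to 2.01 (median 1.78) in FF CD and 1.55 to 2.02 (median 1.69) in LKO CD. None of the 6 was at 0 in every mouse, but Gp1bb reached at most 0.0325 RPKM and Gp9 at most 0.195. The part of platelets in the Rasgrp2 values was not tested, and a hepatocyte origin of Rasgrp2 cannot be read from bulk liver. Hepatocyte markers were abundant in all mice, with Alb from 21300 to 37000 RPKM and Hnf4a from 70.9 to 135. Summed over 9 markers, their medians were 40200 RPKM in FF CD, 48100 in LKO CD, 39300 in FF HFD and 43000 in LKO HFD. Summed Kupffer cell markers had medians of 71.4, 57.5, 112 and 95.5 RPKM in FF CD, LKO CD, FF HFD and LKO HFD, and endothelial markers 31.3, 31.6, 55.3 and 43.2. Their part in the values of the 7 genes was not tested.

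**Figure D1:**
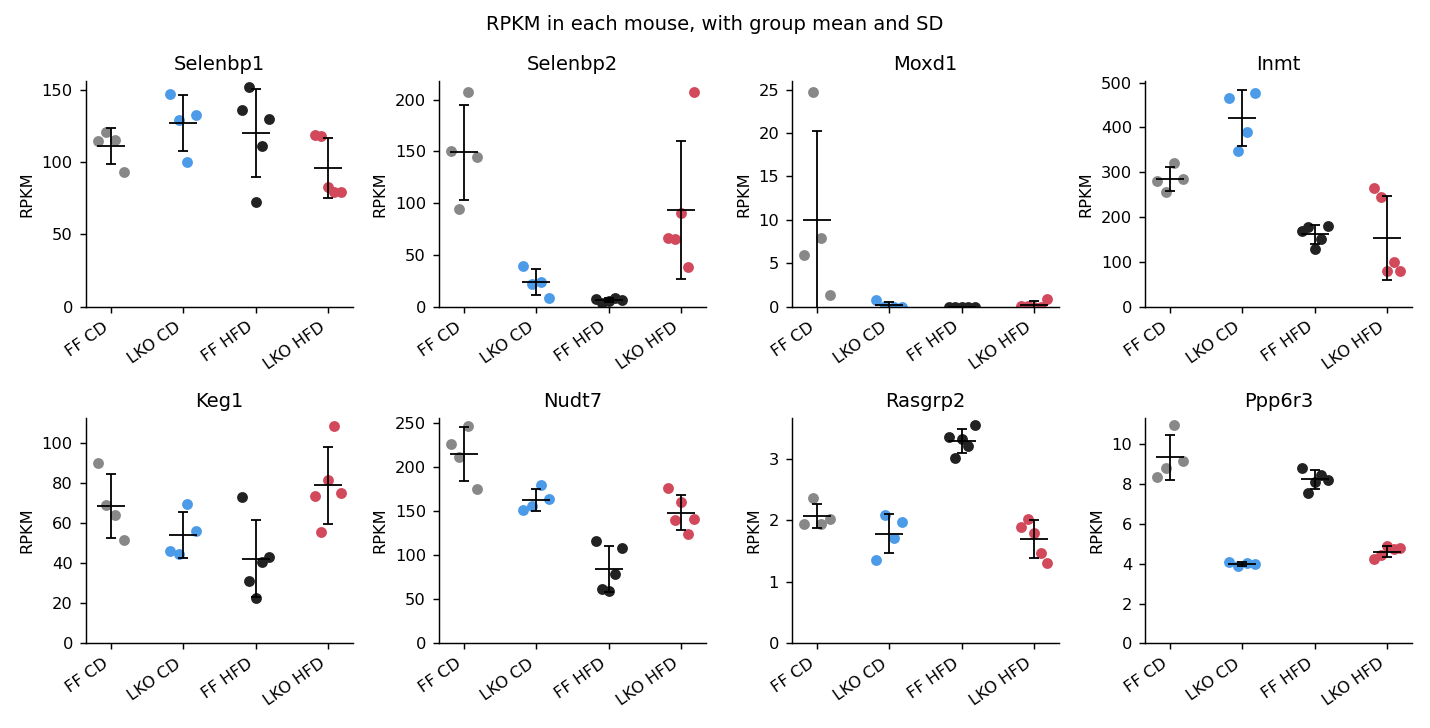
RPKM of the 7 genes and of Ppp6r3 in each of the 18 mice (points, linear axes from 0), with the mean and SD of each group as black bars. Selenbp2 and Nudt7 are lowest in FF HFD, Moxd1 is seen mainly in FF CD, Inmt splits into 2 high and 3 low LKO HFD mice, and Rasgrp2 is highest in FF HFD.

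Ppp6r3, the targeted gene, averaged 9.34 ± 1.14 RPKM in FF CD and 8.23 ± 0.468 in FF HFD against 3.99 ± 0.0823 in LKO CD and 4.60 ± 0.271 in LKO HFD (SD, n = 4, 5, 4 and 5), with no overlap between genotypes. Depth, recovered from the steps between low RPKM values, was 23.4 to 37.0 M reads per mouse. Mice of the same group correlated at r = 0.974 to 0.993 over the 11090 genes whose RPKM averaged 0.5 or more.

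Differences on the scale of log2(RPKM + 1) came from 1 limma fit of the 11090 genes, and this scale understates differences of low genes such as Moxd1 and Rasgrp2. From FF CD to FF HFD, Selenbp2 differed by -4.33 ± 0.41 (log2, SE), Moxd1 by -2.97 ± 0.42, Nudt7 by -1.37 ± 0.18, Inmt by -0.82 ± 0.30 and Keg1 by -0.77 ± 0.26. Selenbp1 (0.08 ± 0.19) and Rasgrp2 (0.49 ± 0.09) had positive values. From LKO CD to LKO HFD, the value of Selenbp2 was of the opposite sign, 1.88 ± 0.41, Inmt was at -1.65 ± 0.30, and the other 5 lay between -0.42 and 0.53. The genotypes on CD differed by -2.74 ± 0.45 in Moxd1 and -2.73 ± 0.43 in Selenbp2 (LKO minus FF). Under HFD they differed by 3.48 ± 0.38 in Selenbp2, 0.96 ± 0.24 in Keg1, 0.84 ± 0.17 in Nudt7 and -0.68 ± 0.09 in Rasgrp2, and by -0.31 ± 0.18 in Selenbp1, -0.27 ± 0.28 in Inmt and 0.24 ± 0.40 in Moxd1. The diet difference of LKO minus that of FF was 6.21 ± 0.57 for Selenbp2, 2.98 ± 0.60 for Moxd1, 1.30 ± 0.36 for Keg1 and 1.23 ± 0.25 for Nudt7, and it was negative for Inmt (-0.82 ± 0.42), Rasgrp2 (-0.53 ± 0.13) and Selenbp1 (-0.50 ± 0.27). For Moxd1 the diet difference within LKO was 0.02 ± 0.42, from an LKO CD mean of 0.203 RPKM that left little room to fall. Its 2.98 is thus nearly all the difference within FF.

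**Figure D2:**
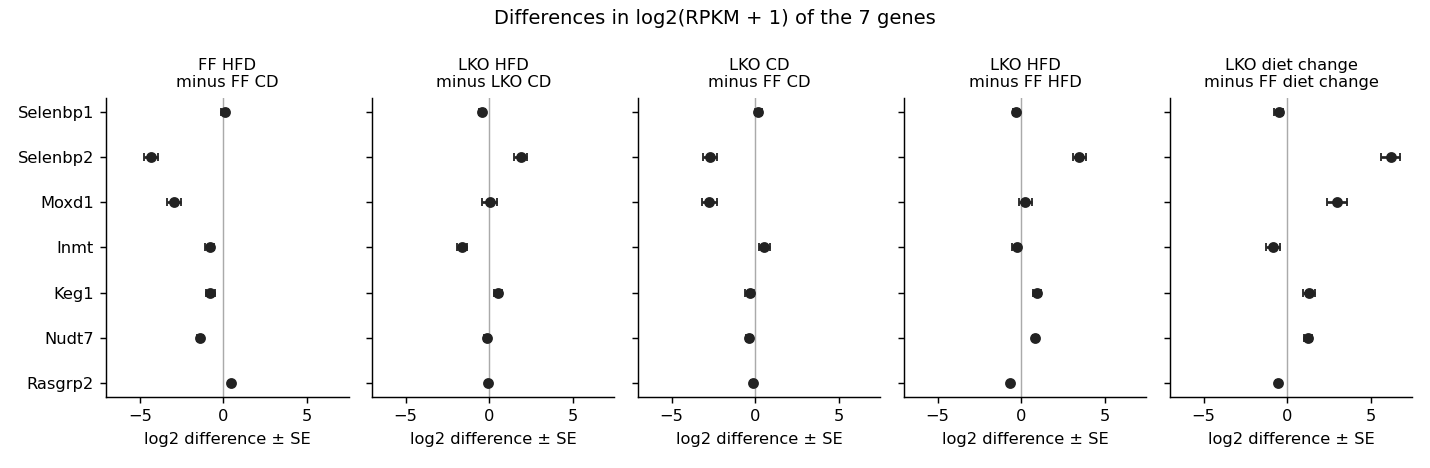
Differences in log2(RPKM + 1) of the 7 genes with their standard errors, for both diet comparisons, both genotype comparisons and the diet difference of LKO minus that of FF. Selenbp2 lies at -4.33 in the first panel and at 6.21 in the last, and Selenbp1 stays between -0.50 and 0.19 in all.

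A gene was called at a fold above 1.5 and an adjusted p under 0.05. The fold is that of RPKM + 1 in the fit, which for low genes is less extreme than the RPKM ratios given above. Of all 11090 tested genes, 6.6% were called from FF CD to FF HFD (5.11% higher and 1.49% lower in HFD), 1.27% from LKO CD to LKO HFD (0.965% and 0.307%), 0.225% between genotypes on CD (0.0902% higher and 0.135% lower in LKO), 2.07% between genotypes under HFD (0.902% and 1.17%), and 2.44% for the difference between the diet responses (0.947% and 1.5%). Among the 7 genes, 4, 2, 2, 4 and 3 were past these thresholds in the same order, counts that follow from the way the genes were chosen. The balance of higher and lower calls depended on scaling, and each share is first set beside that of the scaling that moved it most. The share of calls that were higher was 77.5% for FF on HFD as deposited and 63.5% after centring each mouse on its median, and 75.9% and 45.5% for LKO on HFD. For LKO against FF it was 40% on CD and 51.6% after scaling each mouse to the same RPKM sum, and 43.5% and 33.2% under HFD, and for the difference between diet responses 38.7% and 27.3%. Scaling to the same sum instead gave 84% for FF on HFD and 75.6% for LKO on HFD. Centring gave 38.5% for LKO against FF on CD, 35.5% under HFD and 36.4% for the difference.

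The genes most like each of the 7 were found by Pearson's r of log2(RPKM + 1) over all 18 mice, among tested genes other than the 7. These r are descriptions, since the mice share groups and libraries. Nearest to Selenbp2 were its neighbour BC021767 (r = 0.932, and 0.788 for deviations within groups), Serpina1e, a serine protease inhibitor (0.929 and 0.522), and C6, a complement component (0.924 and 0.505). Nudt7 ran closest to Hsd3b5, a steroid-metabolising enzyme (0.931 and 0.719), the cytochrome P450 gene Cyp2d9 (0.924 and 0.737) and Ttc39c (0.923 and 0.786). Moxd1 was nearest to Acmsd, an enzyme of tryptophan breakdown (0.84 and 0.354), and to the major urinary protein genes Mup16 (0.436 within groups) and Mup4 (0.81 and 0.406). Keg1 was nearest to Tspan33, Ankrd54 and Ero1lb, at r = 0.858, 0.849 and 0.837. Of the 21 genes found in this way, Serpina1e, C6, Hsd3b5 and Cyp2d9 were in the list of male-biased liver genes.

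The remaining genes had other company. Inmt was closest to Hoga1, an enzyme of hydroxyproline breakdown (r = 0.952, and 0.919 within groups), Sucnr1, the succinate receptor (0.94 and 0.916), and Ptms (0.92 and 0.849). Hoga1 averaged 56.2 RPKM in FF CD, 63.7 in LKO CD, 45.6 in FF HFD and 42.9 in LKO HFD, the same order of groups as Inmt. Sucnr1 averaged 25.4, 25.3, 13.4 and 13.6 RPKM. Selenbp1 was closest to Atp5c1, a subunit of the mitochondrial ATP synthase (0.968 and 0.957), Hebp1 (0.944 and 0.965) and Mtarc2 (0.94 and 0.951), so that this likeness was as high within groups as over all mice. Rasgrp2 was closest to Krt23 (0.904 and 0.447), Fam129b (0.885 and 0.781) and Cyp2b9 (0.865 and 0.194), the last a female-biased cytochrome P450. Cyp2b9 averaged 69.3 RPKM in FF HFD and 0.0163, 0.91 and 0.497 in FF CD, LKO CD and LKO HFD. Krt23 averaged 3.35 RPKM in FF HFD and 0.463, 0.448 and 0.512 in the same order of the other groups. Krt23 and Cyp2b9 passed the filter on low values only through FF HFD. They thus had to be high in the group where Rasgrp2 was high.

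Pairs of the 7 genes were compared by the deviations of the 18 mice from their group means, which the choice of the genes did not use. Of 21 pairs, none passed an adjusted p of 0.05 by Pearson's or Spearman's correlation (within-group permutation test, two-sided, 100000 resamples), and 2 had an unadjusted Pearson p under 0.05. Selenbp1 and Inmt deviated together at r = 0.674 (permutation p = 0.00373, adjusted p = 0.0783) and rho = 0.725 (p = 0.00312, adjusted p = 0.0655), and r was 0.774 without the 2 mice farthest from the median of Selenbp1. Keg1 and Nudt7 gave r = 0.658 (permutation p = 0.0251, adjusted p = 0.264) and rho = 0.635 (p = 0.0199, adjusted p = 0.209), with r = 0.356 without the 2 FF HFD mice farthest from the median of Keg1, so this relation rests on them. The near-identical pair Selenbp1 and Selenbp2 had r = -0.138 (permutation p = 0.603, adjusted p = 0.791), rho = -0.209 (p = 0.43, adjusted p = 0.65) and r = -0.189 without 2 mice. In the LKO HFD group the mice formed 2 clusters for Inmt, too few to test within.

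**Figure D3:**
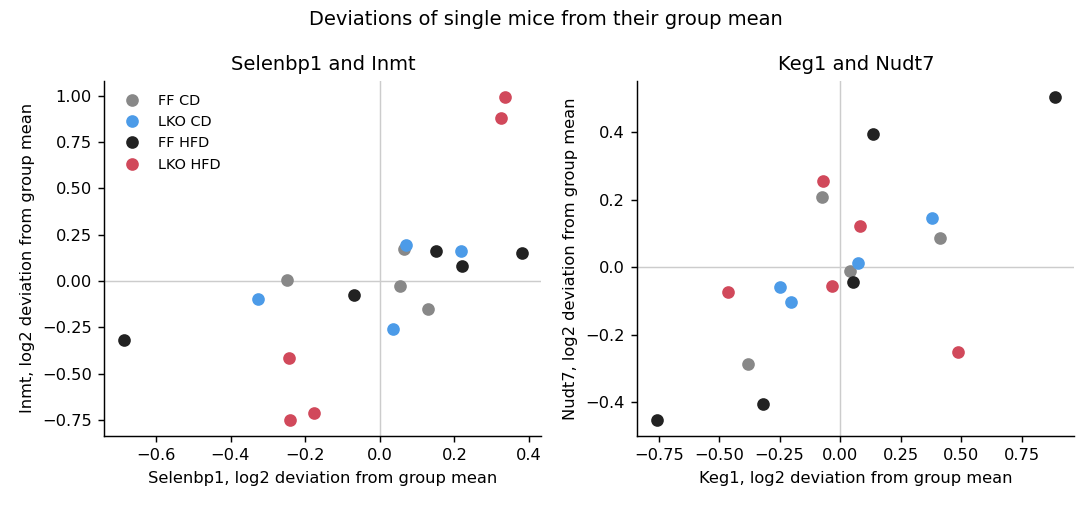
Deviation of each mouse from its group mean in log2(RPKM + 1), for Selenbp1 against Inmt (left) and Keg1 against Nudt7 (right), with points coloured by group. On the left, 2 LKO HFD mice lie at the top right and 3 at the bottom left, and r over the 18 mice is 0.674; on the right r is 0.658.

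Genes of the same chemistry as the 7 were followed in lists that hold none of them. The lists were drawn up with earlier results of these data known, and calls are from the limma fit adjusted over all 11090 genes. Of all tested genes, 5.11% were called higher and 1.49% lower in FF HFD than FF CD. The shares higher and lower were 0.965% and 0.307% from LKO CD to LKO HFD. For LKO against FF they were 0.0902% and 0.135% on CD, and 0.902% and 1.17% under HFD. From FF CD to FF HFD, 1 call in a list of 18 or 20 genes is near the share of all genes. Of 18 genes of sulfur and methyl group metabolism, 2 were higher in FF HFD than FF CD, the sulfite oxidase Suox (log2 difference 0.62 ± 0.10, adjusted p = 0.000549) and Gclc, the catalytic subunit of the first enzyme of glutathione synthesis, named after its value was seen. None was called in the other pairwise comparisons, and the diet response of Suox was lower in LKO (-0.61 ± 0.15, adjusted p = 0.0297). The first Suox call was lost without mouse 3 of FF CD or mouse 1 of FF HFD and under quantile normalization or median centring, which left 1 called gene of the list, and the second was lost when any 1 of 10 of the 18 mice was left out. The list's median difference was 0.07 from FF CD to FF HFD, beside 0.07 over all tested genes. Bhmt and Csad, the other genes named for the list, were at -1.08 ± 0.50 (adjusted p = 0.249) and 0.98 ± 0.35 (adjusted p = 0.132) between genotypes under HFD and were not called.

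Among 18 selenoproteins and selenium-handling genes, only Gpx4, which reduces lipid peroxides, was called, at 66.1 ± 7.14 RPKM in FF CD (SD, n = 4) and 116 ± 18.9 in FF HFD (SD, n = 5), and its diet response was lower in LKO (log2 difference -0.94 ± 0.22, limma adjusted p = 0.0266). This last call was lost without mouse 3 of FF CD, 2 or 4 of LKO CD, 2 of FF HFD or 3 of LKO HFD and without the filter. Dio1 and Selenok were named by the rule and not called in any comparison. Of 7 tested small-molecule methyltransferases, the histamine methyltransferase Hnmt was lower in LKO HFD than FF HFD (-0.63 ± 0.15, adjusted p = 0.0249), while Tpmt was not called. The Hnmt call was lost without mouse 2, 4 or 5 of FF HFD or mouse 3 or 4 of LKO HFD, without the filter and with only the groups compared in the fit. Pam, the 1 tested copper monooxygenase, was not called in any comparison, and Dbh and Moxd2 were below the filter.

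Of 6 tested genes of glycine conjugation, 1 was called in any pairwise comparison. Gm4952, a glycine acyltransferase-like gene that lies near Keg1, was higher in FF HFD than FF CD (log2 difference 1.14 ± 0.22, adjusted p = 0.00157), the direction opposite to that of Keg1, and Acsm1, Acsm3 and Acsm5 were not called. Of 13 genes of coenzyme A synthesis and breakdown, 4 were higher in FF HFD (5.11% of all tested genes) and none lower (1.49%). They were the pantetheinases Vnn1 (2.80 ± 0.29, adjusted p = 7.19e-06) and Vnn3 (0.76 ± 0.13, adjusted p = 0.000632), and, named after their values were seen, the pantothenate kinase Pank1 and the mitochondrial coenzyme A carrier Slc25a42. Pank1 and Slc25a42 lay just past the fold threshold, and the count was 2 under quantile normalization or median centring. Vnn1 averaged 9.72 ± 4.33 RPKM in FF CD, 26.6 ± 10.7 in LKO CD, 68.1 ± 8.21 in FF HFD and 38.8 ± 8.23 in LKO HFD (SD, n = 4, 4, 5 and 5). The diet response was lower in LKO for Vnn1 (-2.21 ± 0.41, adjusted p = 0.00567) and Vnn3 (-1.12 ± 0.18, adjusted p = 0.00203), and Vnn3 was higher in LKO than FF on CD (0.69 ± 0.14, adjusted p = 0.037), a call lost when any 1 of 8 of the 18 mice was left out. Nudt19, the other peroxisomal enzyme of this kind, did not pass the test, at 19.1 ± 3.20 RPKM in FF HFD and 15.8 ± 2.73 in LKO HFD (SD, n = 5 each). Of 20 tested genes of Ras and Rap1 GTPases, their regulators and effectors, 1 was called. This was Rasa3, higher in FF HFD than FF CD (0.72 ± 0.11, adjusted p = 0.00024), and Rapgef4 and Rap2a were not called.

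Sex-biased liver genes were followed in the same way. All 17 male-biased liver genes were tested, and 15 were lower in FF HFD than FF CD and none higher, with a median difference of -2.03 beside 0.07 over all tested genes. Under HFD, 11 were higher in LKO than FF and none lower (median 1.48), and on CD 3 were lower in LKO (median -0.92). None was called from LKO CD to LKO HFD, with a median of 0.50. Serpina1e averaged 3780 ± 1050 RPKM in FF CD, 746 ± 360 in LKO CD, 79.0 ± 65.9 in FF HFD and 1640 ± 220 in LKO HFD (SD, n = 4, 4, 5 and 5), the same order of groups as Selenbp2. Hsd3b5 averaged 133, 63.1, 1.71 and 58.8 RPKM in that order. The urinary protein gene Mup7, at 6580, 977, 691 and 1870 RPKM, was called in FF (log2 difference -4.82 ± 1.1, adjusted p = 0.00526) but not between genotypes under HFD. The diet responses of the genotypes differed for 12 of 17, all in the direction of a higher value in LKO. The list was made with these results known and is no independent evidence, and near-identical genes such as the Mup family may share reads.

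Of 25 female-biased genes, 12 were tested. In FF, 7 were higher under HFD and Lifr, the receptor of leukemia inhibitory factor, was lower, with a median difference of 0.95. Cyp2b9 and Hao2 passed the filter on low values only through FF HFD (means of 0.476 and 0.13 RPKM without that group), so they had to be high there, and the counts without them were 5 higher and 1 lower of 10. Cyp2b9 was 5.90 ± 0.43 (log2, adjusted p = 2.71e-07) and Cyp2a4 4.52 ± 0.47 (adjusted p = 6.07e-06) higher, and Cyp17a1 1.74 ± 0.46 (adjusted p = 0.012), the last not called without mouse 3 of FF CD. Under HFD, Cyp2b9 (-5.41 ± 0.40, adjusted p = 6.96e-07), Cyp2a4 (-4.04 ± 0.44, adjusted p = 3.92e-05) and Hao2 were lower in LKO than FF and Lifr was higher. For Cyp2b9 and Hao2 the filter favoured this direction too, and without them Cyp2a4 and Lifr were the called genes. On CD, Acot3 and Abcd2 were higher in LKO, and none was called from LKO CD to LKO HFD. Of 15 tested genes of growth hormone signalling, Prlr and Stat5a were higher in FF HFD than FF CD, Stat5a was also higher in LKO HFD than LKO CD, and Socs2, a target of the pathway that limits it, was higher in LKO HFD than FF HFD (1.33 ± 0.33, adjusted p = 0.0314). The Stat5a call in LKO was lost without mouse 3 of LKO CD or mouse 3 or 5 of LKO HFD and under quantile normalization or median centring, and its call in FF was lost under quantile normalization. The Socs2 call was lost without mouse 2, 3 or 4 of FF HFD or mouse 3 or 5 of LKO HFD and without the filter. Igfbp3 and Onecut1 were not called. Hao2, Lifr, Acot3, Abcd2, Prlr and Stat5a were named after their values were seen.

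The calls of list genes between the genotypes on CD were not stable. They numbered 6 over all lists, and 0 without mouse 2 or 3 of FF CD or mouse 2 or 4 of LKO CD, 1 without mouse 5 of FF HFD, and 3 without mouse 4 of FF CD or mouse 3 of FF HFD or LKO HFD. The 17 calls between genotypes under HFD became 11 without mouse 2 of FF HFD, and the male-biased calls in that comparison numbered 8 to 13 over all single mice left out. In FF the male-biased calls between diets stayed at 14 or 15.

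**Figure D4:**
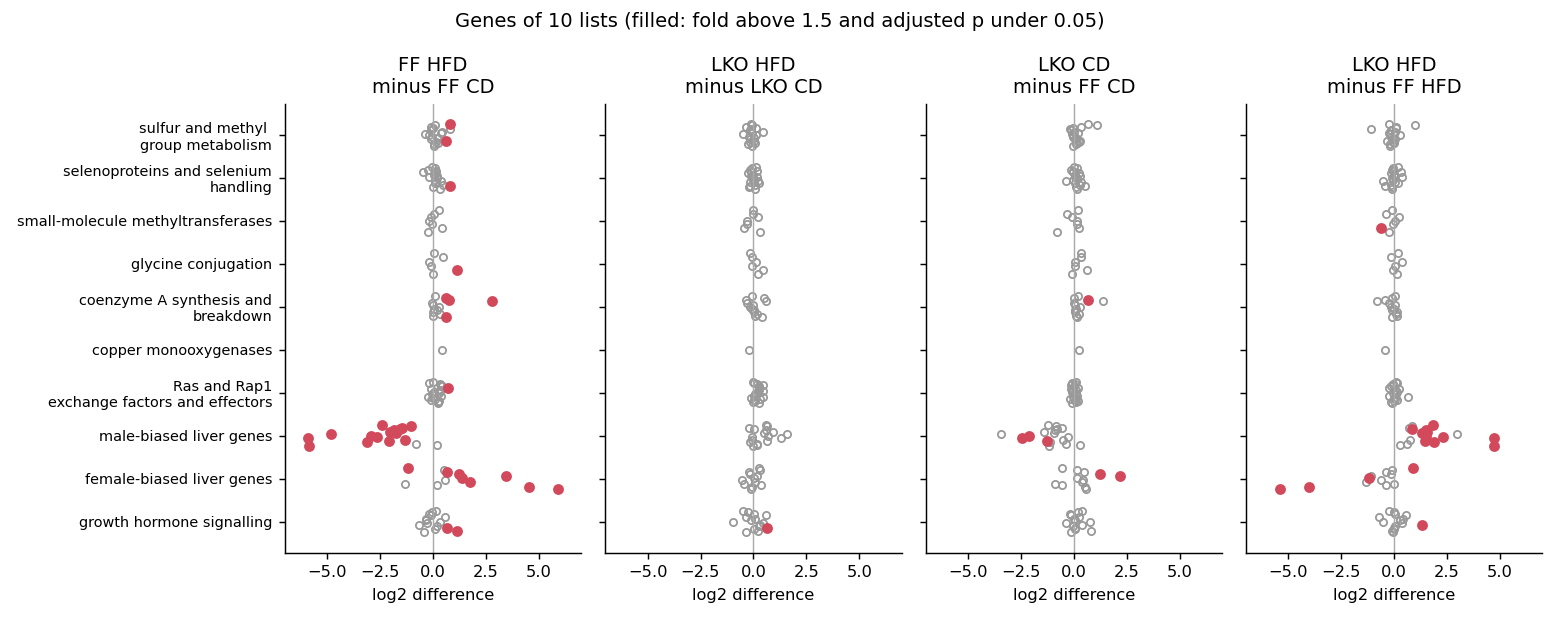
Differences in log2(RPKM + 1) of the tested genes of 10 lists in 4 comparisons, 1 point per gene, with filled points for genes called at a fold above 1.5 and an adjusted p under 0.05. In the first panel 15 of 17 male-biased genes are filled to the left, in the last panel 11 to the right, and in the panel of LKO HFD minus LKO CD none.

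The promoters of Moxd1 and Keg1 are shown because they hold the letters TTCNNNGAA, the core that STAT factors bind. The windows come from RefSeq (GRCm38.p6), plus strand, chr10:24223267-24223516 for Moxd1 and chr19:12695540-12695785 for Keg1, with the matches in capitals.
Moxd1: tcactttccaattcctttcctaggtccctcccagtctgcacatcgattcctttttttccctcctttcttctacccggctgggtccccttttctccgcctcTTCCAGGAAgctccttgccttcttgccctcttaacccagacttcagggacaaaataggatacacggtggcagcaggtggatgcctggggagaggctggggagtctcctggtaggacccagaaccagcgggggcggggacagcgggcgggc
Keg1: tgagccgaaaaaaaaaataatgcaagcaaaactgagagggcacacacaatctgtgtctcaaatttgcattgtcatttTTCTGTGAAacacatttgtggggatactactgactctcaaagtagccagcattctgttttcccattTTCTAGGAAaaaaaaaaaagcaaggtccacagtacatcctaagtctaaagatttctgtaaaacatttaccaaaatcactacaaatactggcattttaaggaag
Moxd1 held 1 match and Keg1 held 2, and the other 5 genes held none in the first RefSeq window of each. The Rasgrp2 window starts at chr19:6399625, inside the gene annotated from 6399340, so no base before that gene was searched for any of these motifs. The letters read the same on both strands, and 8.3% of the 32851 windows of 300 bases hold them. A match is a description of the letters and not a site. The DR1 direct repeat of nuclear receptors (in 0.0396% of windows) and the letters ATTGAT (7.54%) and TGACTCA (5.2%) were in none of the 7, on either strand, and TATAAA was in Inmt with 2 matches besides Selenbp1 and Selenbp2.

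The genes next to the 7 were counted to see whether differences ran along the chromosome. The 5 nearest tested genes on each side came to 63 genes, of which 7 (11.1%) passed in 1 or more of the 4 pairwise comparisons, beside 7.9% of all tested genes. BC021767, which lies at chr3:94661830-94670696 beside Selenbp2, had the same directions as Selenbp2, lower in FF HFD than FF CD (log2 difference -1.0 ± 0.18, adjusted p = 0.000971) and higher in LKO HFD than FF HFD (0.87 ± 0.17, adjusted p = 0.00748). Next to Moxd1, Vnn1, Vnn3 and Ccn2, a matricellular growth factor, were higher in FF HFD than FF CD, the opposite of Moxd1, and Ccn2 was also lower in LKO HFD than FF HFD (-1.02 ± 0.28, adjusted p = 0.0449), a call that was lost when any 1 of 15 of the 18 mice was left out. Ggct near Inmt, Gm4952 near Keg1 and the transcription factor gene Maf near Nudt7 were each higher in FF HFD, and no neighbour of Rasgrp2 was called.

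Rasgrp2 and Keg1 lie on the chromosome of the targeted gene, 2.82 Mb and 9.12 Mb from Ppp6r3. Within 10 Mb of Ppp6r3, 192 other genes were tested. None was called between genotypes on CD, and 3 (1.56%) were called under HFD, beside 0.225% and 2.07% of all tested genes. Those 3 were the transporter genes Slc22a27, Slc22a28 and Slc22a29, named after their values were seen, which lie side by side and may share reads.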

How the data were processed

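Total RNA of 18 livers was sequenced. The authors aligned reads to mm10 with HISAT2 2.0.4 and computed RPKM in Partek, per the labels, and the deposited RPKM tables were used as they are, 1 per mouse. Gene annotation, strand and the handling of reads that fit several genes are not given in the sources used here. The labels describe a small RNA library kit beside a standard RNA-seq protocol. Depth and whole reads were recovered from steps between low RPKM values. Whole reads came out for Moxd1, Inmt, Keg1, Rasgrp2 and Ppp6r3 and not for Selenbp1, Selenbp2 and Nudt7. Floors cover counting error only, and each ± is an SD between mice or a standard error of the fit.

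The 11090 genes whose RPKM averaged 0.5 or more were fitted with limma 3.58.1 in R 4.3.3 on log2(RPKM + 1), with 1 coefficient per group, all 18 mice and eBayes with a trend. Two-sided p-values set differences of group means against the spread between these mice, with Benjamini-Hochberg adjustment over all fitted genes. That spread is pooled over the groups, although it differed between groups for genes such as Inmt. Called means a fold above 1.5 in RPKM + 1 and an adjusted p under 0.05. The fit and the permutation were tested on simulated data. Gene positions are from GENCODE vM21, where 24417 of 25266 symbols matched, and promoters from RefSeq. Older symbols in the lists were matched through RefSeq synonyms. Transcripts and promoters were aligned with Biopython.

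The 7 genes and all lists were chosen with earlier results of these data known. Besides the 7 genes and Ppp6r3, the text names up to 3 genes of each list, those averaging 1 RPKM or more that differed most between genotypes under HFD, the 3 genes most like each of the 7, and called neighbours. One gene that this rule names is not reported here. Alternatives were a pseudocount of 0.1, other filters and scalings, only the groups compared, no trend, a replicate block, the adjusted p alone and leaving out each mouse.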

Additional observations from a re-analysis of the deposited data

Results flagged for a closer look

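Moxd1 had 1 mouse apart from the rest of its group in LKO CD (0.755 RPKM) and in LKO HFD (0.928 RPKM). Of 27 sets of 4 or 5 mice examined, chance alone would set about 1 in 20 apart, and both of these rest on few reads in the other mice.

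The diet response of LKO differed from that of FF by the interaction term of limma for 10 named list genes. On the log2 scale the difference (LKO minus FF) was 7.19 for Serpina1e, 6.40 for Mup7 and 5.86 for Hsd3b5. It was -5.99 for Cyp2b9, -4.58 for Cyp2a4, -2.21 for Vnn1, -1.12 for Vnn3, -0.94 for Gpx4, -0.86 for Hnmt and -0.61 for Suox. Leaving out a single mouse lost the call for 14 of 18 mice in Hnmt, 10 in Suox, 8 in Mup7 and 5 in Gpx4. Cyp2b9 passed the filter on low values only through FF HFD.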

How the results depend on the processing

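None of the differences of the 7 genes past the thresholds changed sign under any alternative. A pseudocount of 0.1 gave Moxd1 -6.01 from FF CD to FF HFD and Rasgrp2 -0.93 between genotypes under HFD. The 7 genes past the thresholds numbered 1 without the filter and 0 with only the groups compared from LKO CD to LKO HFD, 1 with only the groups compared between genotypes on CD, and 5 after scaling to the same RPKM sum for the difference between diet responses. Leaving out single mice gave 3 to 5 in FF between diets, 1 to 2 in LKO (1 without mouse 3 or 4 of LKO CD or mouse 3 of LKO HFD), 2 in all between genotypes on CD, 3 to 4 under HFD and 3 to 4 for the difference. List genes called numbered 0 by quantile normalization and 4 by the adjusted p alone in LKO between diets (0 to 1 without single mice, 0 without mouse 3 of LKO CD or mouse 3 or 5 of LKO HFD), 0 without the filter between genotypes on CD (0 to 8), 31 to 35 in FF between diets, 11 to 22 between genotypes under HFD and 15 to 28 for the difference. Called neighbours numbered 16 (13%) of 123 with 10 genes on each side and 6 to 8 without single mice. Correlated pairs past the adjusted p numbered 0 to 1 without single mice (1 without mouse 2 of FF CD, mouse 2 of LKO CD or mouse 4 of LKO HFD). The causes were not tested.

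Over all tested genes, the pseudocount of 0.1 gave 1254 calls in FF between diets against 732, and 272 against 141 in LKO. Without the filter the calls were 47 in LKO between diets, 12 between genotypes on CD against 25, 152 under HFD against 230, and 169 for the difference against 271. In LKO between diets quantile normalization gave 87, median centring 88 and only the groups compared 40, and scaling to the same sum gave 411 for the difference. The adjusted p alone gave 2287, 449 and 466 in FF, LKO and between genotypes under HFD. Single mice left out moved the calls to 17 to 237 in LKO between diets, 11 to 45 on CD, 129 to 318 under HFD and 155 to 392 for the difference.

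The labels do not say whether the replicate numbers pair the mice. Deviations of same-numbered mice correlated at -0.17 to 0.33 (median 0.054), and those of other numbers at -0.35 to 0.39 (median -0.012). In all, 5 of 18 mice correlated best with their own number. Such weak correlations cannot tell whether the numbers mark pairs. With the replicate block, list genes called between genotypes on CD numbered 3 against 6, and the other counts above stayed within 1.5 times. Depth limits Moxd1 outside FF CD, where 11 of the 14 mice had 4 reads or fewer.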
